A study of Homo sapiens with 12 samples.

Results

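The comparison set L-540 cells treated with sorafenib alone against untreated L-540 cells. The 3 arrays labelled with sorafenib and the 3 labelled as controls were taken by their titles, 6 of the 12 arrays of the study. L-540 is an established human cell line grown from Hodgkin lymphoma. Flasks seeded a day earlier received 5 µM sorafenib, 10 µM perifosine, both drugs at these doses, or no drug, and RNA was collected 24 h later. Each group had 3 arrays with the letters A, B and C. The labels do not state that the letters were separate cultures, so the p-values cover no more than array-to-array spread, and that may be technical. No group named a vehicle.

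Sorafenib is an oral inhibitor of several kinases, among them RAF kinases and the receptors of VEGF and PDGF. Eukaryotic cells answer a shortage of amino acids or misfolded protein through kinases that phosphorylate the translation factor eIF2. Translation then slows while that of the transcription factor ATF4 rises, and ATF4 switches on genes for amino acid supply together with DDIT3 and TRIB3. Glycolytic enzymes are induced by the hypoxia-inducible factor HIF-1 when oxygen is low and by growth factor signalling. The sterol genes follow the SREBP factors, which the INSIG proteins hold in the endoplasmic reticulum. Hodgkin cells carry the receptor CD30 (TNFRSF8), and cytokine signalling through JAK kinases and STAT factors is commonly active in them.

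The 6 arrays detected between 10146 and 11657 probes each, and 8092 genes were tested. Their correlations were 0.975 to 0.982 within a group and 0.963 to 0.977 between the groups. Of the cell type markers, TNFRSF8, CCR7, FSCN1 and TRAF1 were measured among 6 Hodgkin cell genes, and 1 of 7 B cell markers (BLK), 2 of 9 T cell markers (CD2 and CD247) and 3 of 5 cytotoxic markers (GZMB, PRF1 and NKG7) were. COL3A1 and PDGFRA of 5 fibroblast markers and CD68, CSF1R and S100A8 of 6 monocyte and macrophage markers were measured, and none of 5 epithelial and 4 endothelial markers. A change in RNA per cell and a change in the mix of cells cannot be told apart in bulk RNA. Levels are log2 intensities, and differences are sorafenib minus untreated in log2 units with the SE of the limma fit. The phrase "past the threshold" means a Benjamini-Hochberg adjusted p under 0.05 over all 8092 genes. For second probes of a gene and for unnamed probes the adjustment was over all 11904 kept probes instead.

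Sorafenib changed 120 genes, 1.48% of those tested: 78 were higher (0.964%) and 42 lower (0.519%). A total of 45 rose and 15 fell by at least 2-fold. Genes of the stress response, amino acid supply, the leukocyte surface and antigen presentation stood among the rises. Glycolysis, sterol, cytokine, cell cycle and chaperone genes stood among the falls. These groups cover a part of the calls: 31 of the 120 belonged to any of the 45 gene lists. They were 10 of the 78 rises and 21 of the 42 falls, and 694 of the 8092 tested genes were listed. The lists of stress response, antigen presentation, leukocyte adhesion and cytokine genes held 1 call each. In all 120 the sorafenib and untreated arrays did not overlap, as was the case for 24.9% of all genes. The median difference over all genes was 0.00, with 50.3% above 0, and the median SE was 0.21.

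With the letters taken as pairs, which the labels do not state, a replicate block in the fit raised the number called to 404 (4.99%). The 404 were 227 rises (2.81%) and 177 falls (2.19%). These included all 120. Genes that passed only with the block are named as such. The count was 13 when the 6 arrays were fitted without the other 6, and 8 with median scaling over all probes in place of quantile normalization. With median scaling over the kept probes alone, a setting added to the plan, it was 117, and 101 of the 120 were among them. The counts were 42, 40 and 19 without sorafenib array A, B or C, and 72, 30 and 29 without untreated array A, B or C.

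**Figure D1:**
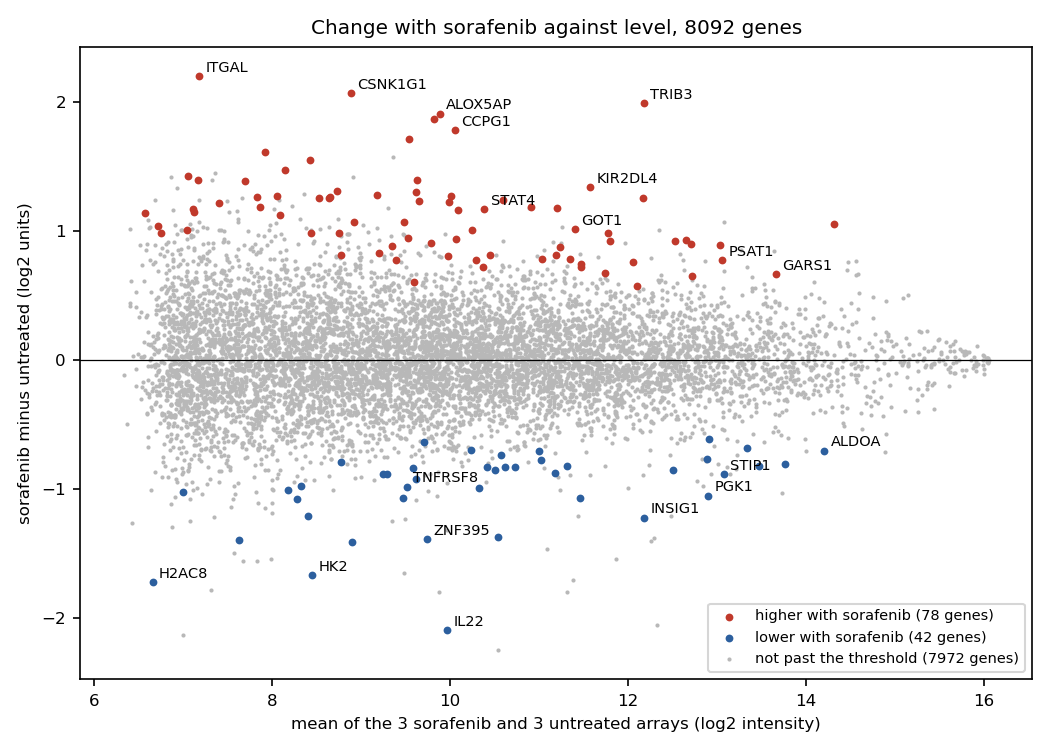
Difference between sorafenib and untreated arrays (log2 units, vertical axis) against the mean log2 intensity of the 6 arrays (horizontal axis), 1 point per gene. The 78 genes past the threshold above 0 are red, the 42 below 0 are blue, and both lie over most of the intensity range.

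Promoters of amino acid synthesis, glycolysis and histone genes, groups with many members on one side of 0, are shown first. Each spans 250 bases before to 50 after the RefSeq transcription start on GRCh38.p14, written 5′ to 3′ on the gene's strand. ASNS (chr7:97872359-97872658, minus strand) and GOT1 (chr10:99430575-99430874, minus strand) stand for amino acid synthesis, and the capitals mark the element read by ATF4 with C/EBP factors, searched as TGATGNAA on both strands. HK2 (chr2:74833877-74834176, plus strand) and PGK1 (chrX:78103998-78104297, plus strand) stand for glycolysis, and the capitals mark the core of the HIF-1 element, searched as ACGTG and GCGTG on both strands. H1-2 (chr6:26056421-26056720, minus strand) stands for histones, and the capitals mark the CCAAT box, searched on both strands as well.
ASNS: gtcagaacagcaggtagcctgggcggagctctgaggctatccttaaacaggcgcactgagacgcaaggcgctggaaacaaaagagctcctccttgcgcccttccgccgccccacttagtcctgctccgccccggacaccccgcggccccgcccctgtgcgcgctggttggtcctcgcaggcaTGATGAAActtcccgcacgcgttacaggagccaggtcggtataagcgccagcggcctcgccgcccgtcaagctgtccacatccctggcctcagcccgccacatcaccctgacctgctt
GOT1: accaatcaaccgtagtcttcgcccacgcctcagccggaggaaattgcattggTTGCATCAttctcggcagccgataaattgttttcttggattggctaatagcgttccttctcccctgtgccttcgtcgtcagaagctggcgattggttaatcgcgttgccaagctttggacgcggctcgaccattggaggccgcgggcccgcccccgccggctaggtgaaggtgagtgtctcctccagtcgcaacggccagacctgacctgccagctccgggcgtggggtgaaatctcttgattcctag
HK2: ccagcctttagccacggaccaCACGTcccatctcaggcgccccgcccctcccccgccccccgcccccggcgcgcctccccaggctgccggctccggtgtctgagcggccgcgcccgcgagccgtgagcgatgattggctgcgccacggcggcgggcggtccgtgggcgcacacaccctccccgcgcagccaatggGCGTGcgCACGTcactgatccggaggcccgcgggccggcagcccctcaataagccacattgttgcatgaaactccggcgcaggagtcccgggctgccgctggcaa
PGK1: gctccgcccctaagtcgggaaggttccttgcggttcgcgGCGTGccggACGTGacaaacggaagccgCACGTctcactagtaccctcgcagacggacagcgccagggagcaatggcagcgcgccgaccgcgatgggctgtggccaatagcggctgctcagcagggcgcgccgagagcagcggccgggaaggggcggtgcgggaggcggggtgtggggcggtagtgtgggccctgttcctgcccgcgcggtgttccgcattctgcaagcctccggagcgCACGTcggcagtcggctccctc
H1-2: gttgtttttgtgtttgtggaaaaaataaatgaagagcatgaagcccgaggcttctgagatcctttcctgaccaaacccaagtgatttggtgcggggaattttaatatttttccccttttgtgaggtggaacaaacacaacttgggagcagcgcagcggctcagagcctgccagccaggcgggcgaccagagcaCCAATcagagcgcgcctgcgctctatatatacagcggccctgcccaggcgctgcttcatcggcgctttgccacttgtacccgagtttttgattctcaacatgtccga

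The ASNS promoter held its match 68 bases before the start and the GOT1 promoter held one 198 bases before it, on the opposite strand. No match lay in the windows of TRIB3, DDIT3, PSAT1, GARS1, CCPG1 and GTPBP2. TGATGNAA occurred in 1.8% of the 6708 promoters of tested genes, in 4 of the 12 matched promoters of amino acid synthesis genes and in 1 of 17 of the stress response list. It occurred in 2 of 66 promoters of genes that rose and in 1 of 33 of genes that fell. HK2 held 3 and PGK1 held 4 matches to the HIF-1 core. That core occurred in 65.1% of tested promoters, in 16 of 20 glycolysis promoters, in 35 of 66 promoters of genes that rose and in 21 of 33 of genes that fell. CCAAT occurred in 37.8% of tested promoters, in 15 of 66 of genes that rose, in 16 of 33 of genes that fell, in 13 of 16 histone promoters and in 11 of 13 promoters of sterol synthesis genes. These matches describe letters in a window and no binding was measured.

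TRIB3 rose most among the stress response genes. It encodes a pseudokinase that is induced through ATF4 and DDIT3. TRIB3 read 12.83, 13.19 and 13.51 on sorafenib arrays A, B and C, against 11.62, 11.06 and 10.87 on the untreated arrays. All 3 sorafenib arrays lay above all 3 untreated ones, a difference of 1.99 ± 0.276 (adjusted p = 0.00788) or 3.98-fold. ATF4, whose protein is mainly regulated by translation, read 13.57, 13.60 and 13.94 with sorafenib and 13.55, 13.03 and 12.86 without. Its lowest sorafenib array stood just above the highest untreated one, and the difference of 0.56 ± 0.208 did not pass (adjusted p = 0.193). DDIT3, which encodes the stress factor CHOP, read 11.39, 11.43 and 11.61 with sorafenib, against 10.88, 9.90 and 10.09 untreated. The groups did not overlap, and DDIT3 passed only with the replicate block (difference 1.18, adjusted p = 0.0634 without the block and 0.0238 with it).

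Of 24 listed kinases and factors of the integrated stress response 18 were measured, and their median difference was 0.20. TRIB3 passed, and no member was called lower. With the block 4 more rose. These were DDIT3, PPP1R15A (1.01, block adjusted p = 0.0174), which directs the phosphatase that resets eIF2, and the C/EBP factor genes CEBPB (0.76, 0.0459) and CEBPG (0.67, 0.0462). The eIF2 kinase genes EIF2AK1, EIF2AK2 and EIF2AK4 had differences of 0.28, 0.02 and 0.03. GTPBP2 and NIBAN1, stress-responsive genes chosen after their values were seen, rose by 1.26 ± 0.201 (adjusted p = 0.0147) and 0.93 ± 0.162 (adjusted p = 0.0205). A second NIBAN1 probe gave 0.75 (adjusted p = 0.195).

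Among genes of amino acid synthesis GOT1 and PSAT1 rose. GOT1, the cytosolic aspartate aminotransferase, read 11.82, 11.97 and 11.94 with sorafenib, against 11.10, 10.62 and 10.96 untreated. The groups stood apart, by 1.02 ± 0.173 (adjusted p = 0.0196). PSAT1, an enzyme of serine synthesis, read 13.33, 13.48 and 13.53 with sorafenib, against 12.91, 12.60 and 12.50 untreated. Its arrays did not overlap either (0.78 ± 0.171, adjusted p = 0.0495). The asparagine synthetase gene ASNS read 15.07, 14.67 and 14.93 with sorafenib and 14.56, 14.17 and 13.96 untreated. These 2 sets also did not overlap, but the difference of 0.66 ± 0.226 was not past the threshold (adjusted p = 0.16).

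The list of serine, one-carbon, asparagine and proline synthesis had a median of 0.43 over 15 measured of 22 genes, 10 of them above 0. CTH, which makes cysteine, rose only with the block (0.91, block adjusted p = 0.0419), and MTHFD1, a folate enzyme, fell only with it (-0.68). Among 18 cytosolic aminoacyl-tRNA synthetases the median was 0.22, and GARS1, the glycine enzyme, rose by 0.67 ± 0.141 (adjusted p = 0.0451), while WARS1, the tryptophan enzyme, passed only with the block (0.85, 0.0481). The 13 mitochondrial synthetases had a median of -0.03, with none called and LARS2 lower only with the block (-0.50). Of 14 amino acid transporters 12 had positive differences (median 0.29), none passed, and the glycine transporter gene SLC6A9 passed only with the block (block adjusted p = 0.0132). SLC6A9 was detected on 2 sorafenib arrays and on no untreated array, at 6.64, 7.17 and 7.56 against 6.02, 6.20 and 6.07, too near background for a fold.

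DDIT4, which encodes an inhibitor of mTORC1 that stress and hypoxia induce, had values in the other direction. DDIT4 read 12.62, 11.40 and 11.63 with sorafenib, against 13.76, 12.57 and 12.94 untreated. The array sets overlapped, since both A arrays were the highest of their group, yet each sorafenib array lay at least 1 log2 unit below the untreated array of its letter. The difference of -1.21 ± 0.5 did not pass without the block (adjusted p = 0.246) and passed with it (0.00572). The other 9 measured genes of mTORC1 control had differences from -0.27 (RHEB) to 0.61 (SESN2), none past the threshold.

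CCPG1, a receptor for autophagy of the endoplasmic reticulum, rose by 1.78 ± 0.217 (adjusted p = 0.00647). It read 10.69, 11.23 and 10.91 with sorafenib, against 9.28, 9.13 and 9.06 untreated, with no overlap. It was the 1 called gene of 25 measured autophagy and lysosome genes, whose median was 0.05. ATG12, a conjugated autophagy protein, rose (0.53) and the mitophagy receptor gene BNIP3L fell (-1.32) only with the block. BNIP3L read 10.23, 8.94 and 8.75 with sorafenib, against 10.64, 10.77 and 10.45 untreated, so sorafenib array A lay near the untreated arrays.

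No chaperone gene was called higher. MANF, a stress-induced protein of the endoplasmic reticulum, fell (-0.68 ± 0.147, adjusted p = 0.0479), and the 23 measured genes of folding in the endoplasmic reticulum had a median of -0.27. With the block ERO1A (-0.69) and P4HB (-0.53), enzymes of disulfide bond formation, fell as well. HSPA5, the main chaperone of the compartment, differed by -0.33 and did not pass. Of 22 heat shock proteins and chaperonins 19 had negative differences (median -0.22), and STIP1, which links HSP70 to HSP90, fell (-0.89 ± 0.176, adjusted p = 0.0343). The heat shock gene HSPA1B, whose copy HSPA1A is nearly identical, fell only with the block (-0.82). ZFAND2A, an arsenite-inducible gene of protein quality control, rose by 1.40 ± 0.231 (adjusted p = 0.0164), with 10.28, 10.40 and 10.30 on the sorafenib arrays, against 9.24, 8.58 and 8.99 on the untreated ones.

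**Figure D2:**
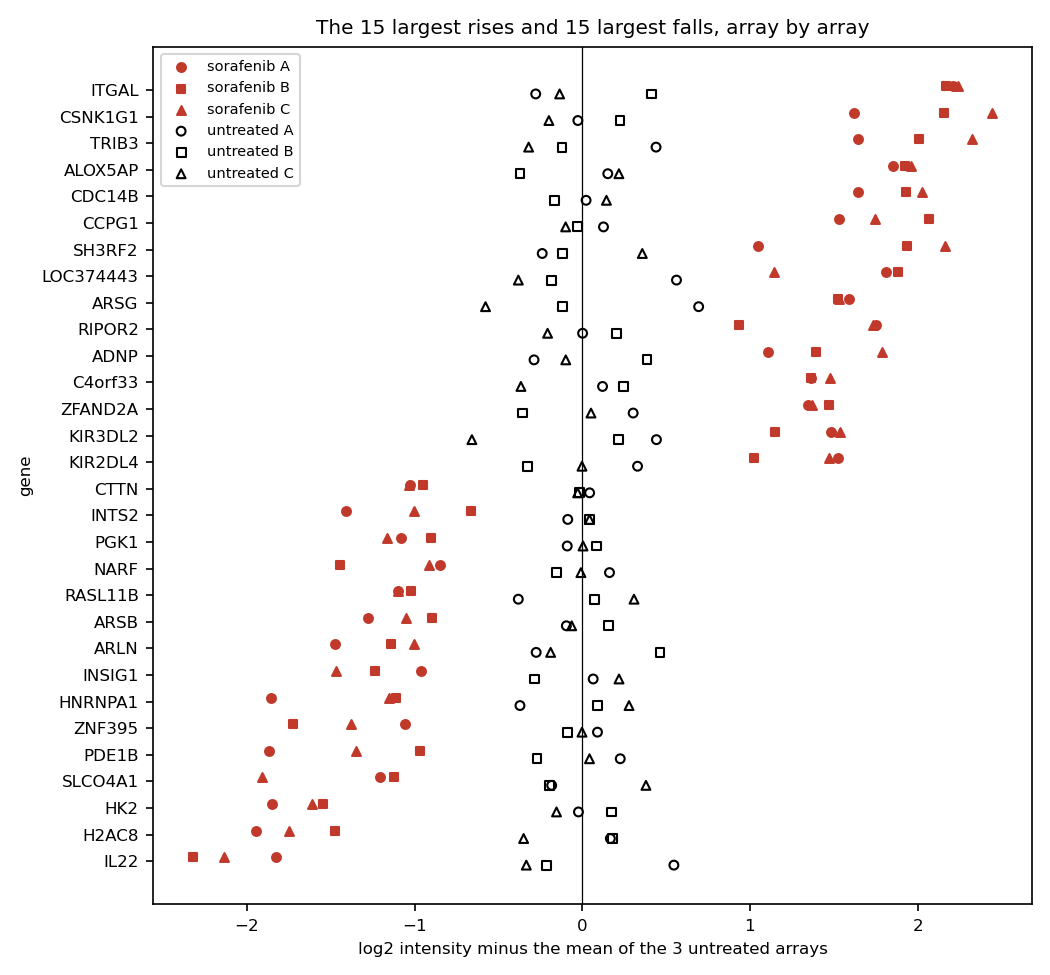
Log2 intensity of each array minus the mean of the 3 untreated arrays (horizontal axis) for the 15 largest rises and 15 largest falls past the threshold. Filled symbols are sorafenib arrays and open symbols untreated arrays, with the letter given by the shape; the 2 sets do not overlap in any of the 30 genes.

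Glycolysis showed the most calls of any pathway: 6 of 21 measured genes fell, none rose, and 15 had sorafenib arrays all below the untreated arrays, which held for 11.8% of all genes. The median difference was -0.60, and on the sorafenib arrays A, B and C the list's median deviation from the untreated mean was -0.57, -0.63 and -0.75, against 0.05, 0.01 and 0.01 on the untreated arrays. HK2, the hexokinase that commits glucose to the pathway, read 7.43, 7.74 and 7.67 with sorafenib, against 9.26, 9.46 and 9.13 untreated. The groups were more than 1 log2 unit apart, a fall of 3.18-fold (-1.67 ± 0.158, adjusted p = 0.0022). PGK1, the phosphoglycerate kinase, read 12.34, 12.52 and 12.26 with sorafenib and 13.34, 13.51 and 13.43 untreated. The arrays again did not overlap (-1.05 ± 0.154, adjusted p = 0.0106). A second probe gave -0.97 for HK2 (adjusted p = 0.0637) and -1.25 for PGK1 (adjusted p = 0.0329).

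The other called glycolysis genes were PFKFB3, which makes the activator of phosphofructokinase (-0.83), the mutase gene PGAM1 (-0.82), the isomerase gene GPI (-0.81) and the aldolase gene ALDOA (-0.70), with adjusted p from 0.0223 to 0.0495. A further 6 fell only with the block: PFKFB4 (-2.06), ENO2 (-1.21), PKM (-0.83), TPI1 (-0.71), HK1 (-0.60) and LDHA (-0.57). PFKFB4, a relative of PFKFB3, read 12.51, 10.52 and 10.85 with sorafenib, against 13.59, 13.23 and 13.24 untreated. Sorafenib array A lay nearer to the untreated arrays than to the other sorafenib arrays (adjusted p = 0.0925, block adjusted p = 0.013). The glucose transporter genes SLC2A1 (-0.37) and SLC2A3 (-0.39) and the enzyme genes GAPDH (-0.09) and ENO1 (-0.08) did not pass, nor did LDHB (0.22), the 1 measured member with a positive difference. GYS1, the glycogen synthase chosen after its values were seen, fell (-0.97 ± 0.18, adjusted p = 0.0257).

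**Figure D3:**
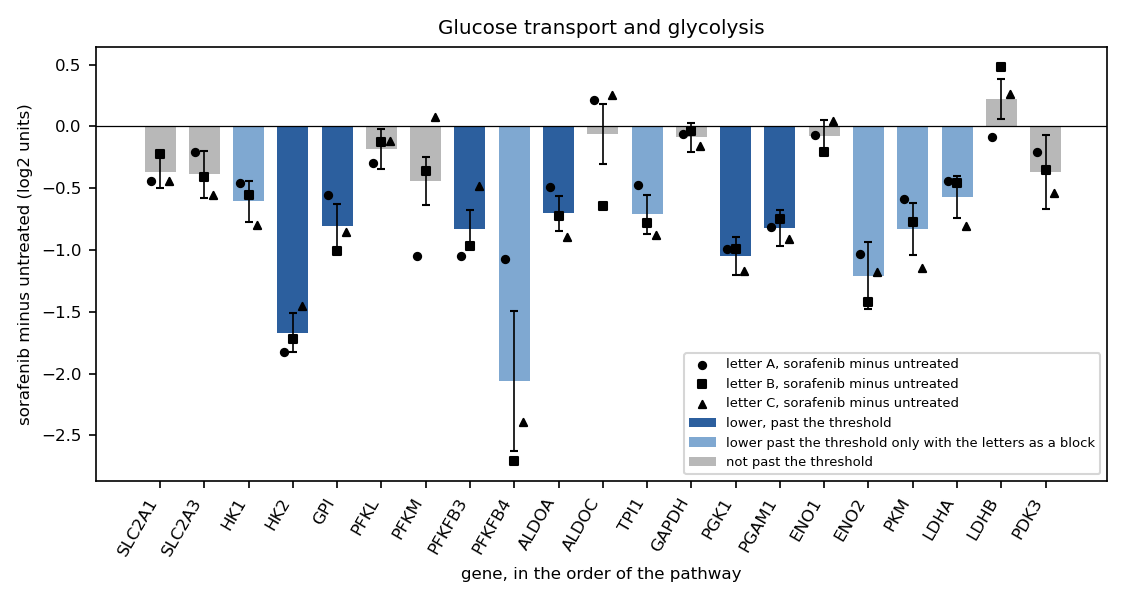
Difference between sorafenib and untreated arrays (log2 units) for 21 glycolysis and glucose or lactate transport genes in pathway order. Bars are the fitted difference with its SE, symbols the differences within letters A, B and C; dark blue genes pass the threshold, light blue genes pass only with the replicate block.

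Hypoxia-inducible genes outside glycolysis had a median of -0.69, with 11 of 13 below 0. The list's median deviation was -0.23 on sorafenib array A, -0.86 on B and -0.73 on C, against 0.12, -0.09 and 0.03 on the untreated arrays. ZNF395, a hypoxia-induced transcription regulator, read 9.37, 8.70 and 9.05 with sorafenib, against 10.52, 10.34 and 10.43 untreated. The groups stood apart, and ZNF395 fell (-1.39 ± 0.228, adjusted p = 0.0161). ANKRD37 (-1.38), BNIP3L, INSIG2 (-1.01) and ERO1A fell only with the block. HIF1A, the oxygen-regulated subunit, and VEGFA, the angiogenic factor, had differences of 0.22 and 0.04 and did not pass. Respiratory chain and ATP synthase genes had a median of -0.05 over 44 genes with none called, and SDHC of complex II was lower with the block (-0.55). These lists share BNIP3L, INSIG2 and ERO1A with the lists of autophagy, sterol control and endoplasmic reticulum folding.

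Of the sterol synthesis genes DHCR7 fell, and most others had negative differences that did not pass. DHCR7, the last enzyme of cholesterol synthesis, read 11.10, 10.51 and 10.63 with sorafenib, against 11.56, 11.62 and 11.68 untreated. The groups did not overlap (-0.87 ± 0.189, adjusted p = 0.0479). Of 15 measured genes of the pathway 14 had negative differences, with a median of -0.58, and in 7 the sorafenib arrays all lay below the untreated ones, as in 11.8% of all genes. MVD (-0.73), MVK (-0.65), FDPS (-0.63) and HMGCS1 (-0.61) of the mevalonate pathway did not pass, and GGPS1, which makes geranylgeranyl groups, was the 1 gene above 0 (0.39).

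INSIG1, which retains the SREBP complex when sterols are plentiful and is itself an SREBP target, fell most among the sterol genes. INSIG1 read 11.83, 11.56 and 11.32 with sorafenib, against 12.86, 12.51 and 13.01 untreated. All sorafenib arrays lay below the untreated ones (-1.22 ± 0.214, adjusted p = 0.0205), and a second INSIG1 probe gave -0.96 (adjusted p = 0.272). INSIG2, its paralog, fell and MYLIP, a ligase that degrades the LDL receptor, rose only with the block (-1.01 and 0.65). The median of the 9 measured genes of sterol sensing, uptake and export was -0.04. Among 11 fatty acid synthesis genes the median was -0.20 with none called, while FASN, the fatty acid synthase (-0.88), and SCD, the stearoyl desaturase (-0.61), fell with the block.

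IL22 fell more than any other called gene. It encodes a cytokine of T helper and innate lymphoid cells that acts on epithelia. IL22 read 9.19, 8.70 and 8.88 with sorafenib, against 11.56, 10.80 and 10.68 untreated. The groups were at least 1 log2 unit apart, a difference of -2.09 ± 0.286 (adjusted p = 0.00788) or 4.27-fold, and a second probe gave -1.74 (adjusted p = 0.0783). Of 11 measured of 30 cytokines and chemokines no other passed, and CCL5, a chemokine for T cells, rose only with the block (0.85, 0.0229). The median of the list was -0.16.

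TNFRSF8, the CD30 receptor by which Hodgkin cells are recognised, fell as well. TNFRSF8 read 9.29, 8.85 and 8.92 with sorafenib, against 10.26, 9.72 and 10.03 untreated, with no overlap (-0.98 ± 0.188, adjusted p = 0.0293). It was the 1 call among 19 measured genes of the TNF family and Hodgkin cells, whose median was -0.04. TRAF1, a signalling adaptor of these receptors, rose (0.84) and JUNB, an AP-1 subunit, fell (-0.88) only with the block. The ligand gene CD274 (PD-L1) had a difference of -0.96 and did not pass, and it was detected on 1 sorafenib and 2 untreated arrays. TNFSF13B, which encodes the survival factor BAFF and was chosen after its values were seen, rose by 1.30 ± 0.18 (adjusted p = 0.00788). A second TNFSF13B probe gave 0.71 (adjusted p = 0.436).

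Of the JAK-STAT genes CISH and PIM2 fell and STAT4 rose. CISH, a feedback inhibitor that STAT5 induces, read 10.24, 9.73 and 9.52 with sorafenib, against 11.08, 10.79 and 10.60 untreated (-0.99 ± 0.199, adjusted p = 0.036). PIM2, a survival kinase, read 12.70, 12.36 and 12.45 with sorafenib, against 13.46, 13.02 and 13.32 untreated (-0.76 ± 0.156, adjusted p = 0.04). Neither gene's groups overlapped. STAT4, which carries signals of IL-12, read 10.77, 11.17 and 10.97 with sorafenib and 9.57, 9.80 and 10.03 untreated, also without overlap (1.17 ± 0.153, adjusted p = 0.00647). PIM1, a kinase related to PIM2, fell only with the block (-0.98, 0.0132). SOCS3, another feedback inhibitor, was detected on no sorafenib array and on all 3 untreated arrays, at 6.07, 6.57 and 6.63 against 9.67, 7.11 and 7.84. The spread of its untreated arrays was wide and it did not pass (adjusted p = 0.117, block adjusted p = 0.0619). The 19 measured genes of the list had a median of -0.26. Their median deviation was 0.09 on sorafenib array A, -0.35 on B and -0.36 on C, against 0.19, -0.09 and -0.11 on the untreated arrays.

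ITGAL and ALOX5AP, genes of leukocyte adhesion and lipid mediators, were among the leading rises. ITGAL, the alpha chain of the integrin LFA-1, read 8.28, 8.24 and 8.31 with sorafenib, against 5.80, 6.49 and 5.94 untreated. It was detected on all 3 sorafenib arrays and on no untreated array, so its fold is given as a bound: ITGAL was at least 2.05-fold higher (adjusted p = 0.00647). ALOX5AP, which presents arachidonic acid to 5-lipoxygenase in leukotriene synthesis, read 10.78, 10.85 and 10.89 with sorafenib and 9.08, 8.56 and 9.15 untreated. The groups were far apart against their spread (1.91 ± 0.227, adjusted p = 0.00647). No other gene passed among 10 measured integrins and adhesion genes (median 0.10) or among 8 of leukotriene and prostaglandin synthesis (median 0.01).

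The killer cell receptor genes KIR2DL4 and KIR3DL2 rose by 1.34 ± 0.245 (adjusted p = 0.025) and 1.39 ± 0.293 (adjusted p = 0.0451). They have close relatives in sequence, so their probes may read more than 1 gene. All 3 KIR2DL4 probes had positive differences. KIR3DL2 was detected on 2 of 3 untreated arrays. CD160, a receptor of cytotoxic lymphocytes chosen after its values were seen, was detected on all 3 sorafenib arrays and on no untreated one and was at least 1.37-fold higher (adjusted p = 0.0198). No cytotoxic marker passed: NKG7 differed by -0.08, PRF1 by -0.61, and GZMB, the granzyme, fell only with the block (-1.09, 0.0344). GZMB read 10.16, 7.98 and 9.07 with sorafenib, against 11.34, 9.59 and 9.55 untreated, and both A arrays stood highest. Of T cell markers CD2 rose only with the block (0.53), and CD247 had a difference of -0.24. BLK differed by 0.19, CD68 by 0.00, CSF1R by 0.42, S100A8 by -0.92 and COL3A1 by -0.15, none past the threshold, and PDGFRA was detected on 1 of the 6 arrays.

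Antigen presentation genes had a median of 0.32, with 17 of 18 measured genes above 0 and HLA-DMB past the threshold. HLA-DMB, which helps load peptides on class II molecules, read 12.53, 12.28 and 12.48 with sorafenib, against 11.54, 11.69 and 11.78 untreated. The groups did not overlap (0.76 ± 0.145, adjusted p = 0.0293). CD74, the class II invariant chain, rose only with the block (0.67, 0.0284). CIITA, the class II transactivator, and HLA-DQB1 had differences of 0.91 and 0.83 and did not pass, and CIITA was detected on 1 untreated array. In 8 of the 18 the sorafenib arrays all lay above the untreated arrays, as in 13.1% of all genes. HLA-DOA, which tempers HLA-DM and was chosen after its values were seen, rose by 1.17 ± 0.173 (adjusted p = 0.0112). HLA probes can read sister genes and alleles. Interferon-stimulated genes had a median of -0.13 over 18 genes with none called. With the block MX2 (0.91) and IRF1 (0.82) were higher and SAMD9 (-0.48) lower.

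Cell cycle genes mostly had small negative differences, and 5 of them fell. Of 36 measured genes of DNA replication and nucleotide synthesis 33 had negative differences, with a median of -0.27. CDT1, which licenses replication origins, read 10.28, 10.21 and 10.45 with sorafenib, against 11.29, 11.12 and 11.02 untreated (-0.83 ± 0.134, adjusted p = 0.0158). TK1, the thymidine kinase of S phase, fell (-0.62 ± 0.135, adjusted p = 0.0495). RRM2 (-0.99), FEN1 (-0.94), MCM4 (-0.77) and MCM2 (-0.47) fell only with the block, and PCNA, the replication clamp, differed by -0.03.

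Of 32 mitosis genes 27 had negative differences, with a median of -0.24. ESPL1, the protease that parts sister chromatids, and INCENP, a subunit of the Aurora B complex, fell (-0.88 ± 0.156, adjusted p = 0.0214, and -0.84 ± 0.177, adjusted p = 0.0451), though a second INCENP probe gave -0.15 (adjusted p = 0.88). The motor genes KIF11 (-0.78) and KIF20A (-0.72) fell only with the block. CDC25A, the phosphatase that activates CDK2, fell (-0.86 ± 0.149, adjusted p = 0.0205), and CCNA2 (-0.49) fell with the block. CDC14B, a phosphatase with a role in mitotic exit, rose. It read 10.53, 10.82 and 10.91 with sorafenib, against 8.91, 8.72 and 9.03 untreated (1.87 ± 0.236, adjusted p = 0.00647), and its second probe gave 1.70 (adjusted p = 0.0551). The 16 measured cyclins, kinases, inhibitors and phosphatases had a median of -0.07. BTG1, an antiproliferative gene chosen after its values were seen, rose by 0.88 ± 0.177 (adjusted p = 0.036).

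Histone genes had the lowest median of any list, -0.74 over 17 measured genes, with 16 below 0. In 12 the sorafenib arrays all lay below the untreated ones, as in 11.8% of all genes. H2AC8 was detected on no sorafenib array and on 2 of 3 untreated arrays, and it was at least 1.27-fold lower (adjusted p = 0.00647). With 1 perifosine array and no combination array it just met the detection filter, only through arrays without sorafenib, where it was high. H1-2, a linker histone, read 8.86, 9.08 and 8.99 with sorafenib, against 11.38, 10.38 and 10.57 untreated. The groups were over 1 log2 unit apart, yet H1-2 passed only with the block (-1.80, adjusted p = 0.0518 without it and 0.0174 with it). H4C8 (-1.06), H2BC12 (-1.03), H3C10 (-1.02) and H2AC6 (-0.82) also fell only with the block. Histone genes have near-identical copies, so probes may read several. The list's median deviation was -0.33 on sorafenib array A, -0.82 on B and -0.84 on C.

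**Figure D4:**
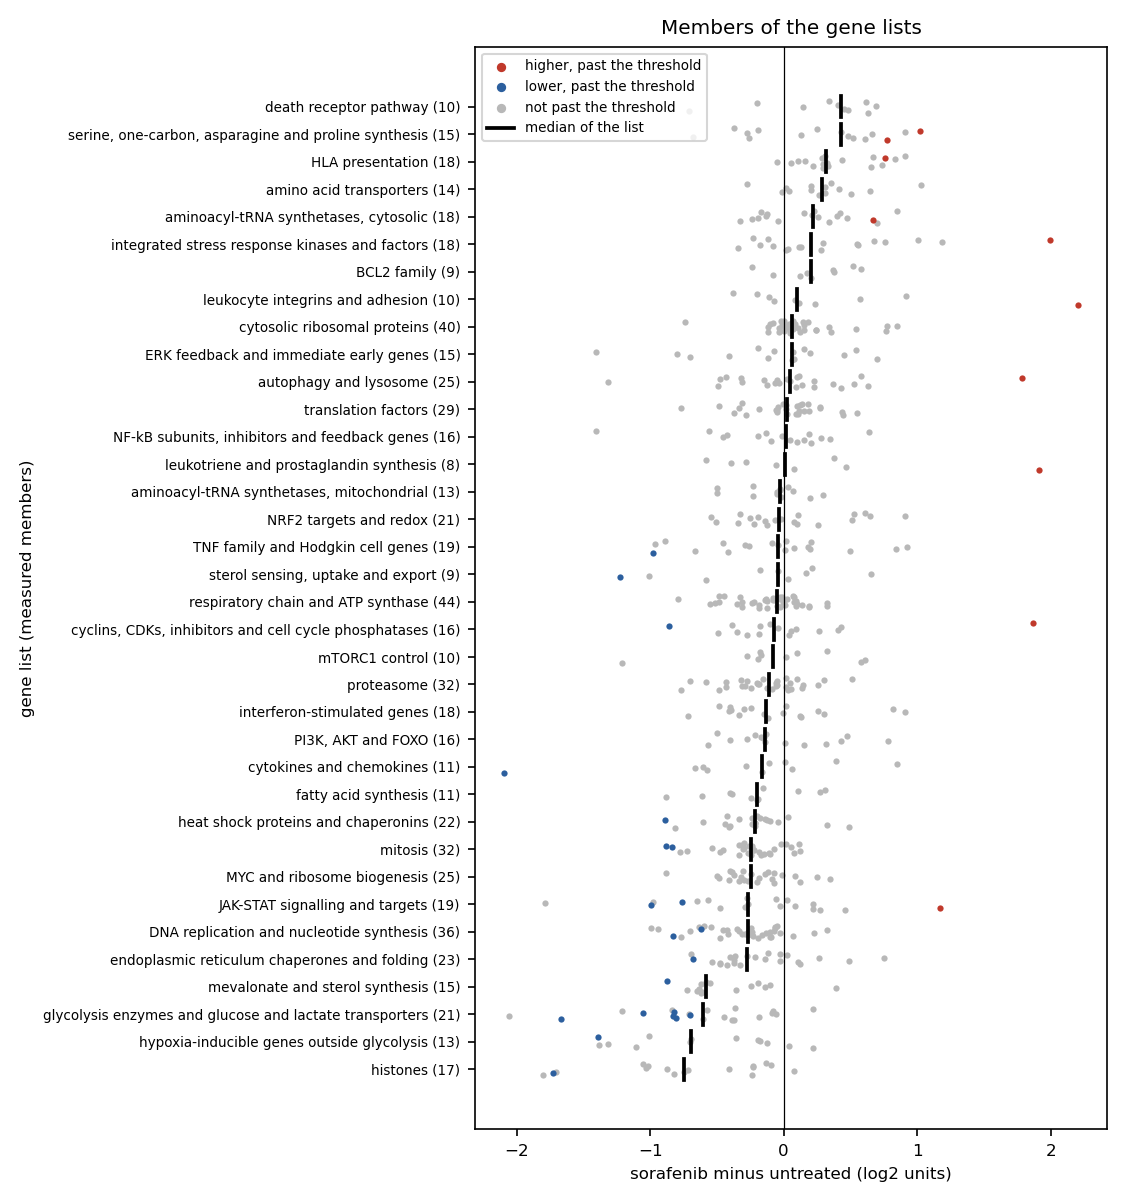
Differences between sorafenib and untreated arrays (log2 units, horizontal axis) for the measured members of the gene lists, 1 point per gene, with list medians as bars and the number of measured members in brackets. Death receptor and amino acid synthesis genes have the highest medians (0.43 each) and histones the lowest (-0.74).

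Other lists of signalling and housekeeping genes held few or no calls. None of the 5 measured genes listed as sorafenib target kinases or kinases below RAF passed. MAP2K1 differed most (-0.44), PDGFRA lay near background, and MAPK3 (-0.04), MAP2K2 (-0.04) and ARAF (-0.03) differed little. MAP2K1, MAP2K2 and MAPK3 encode kinases that act below RAF. MYC differed by -0.07 ± 0.175 (adjusted p = 0.884), and of 25 MYC and ribosome biogenesis genes 21 had negative differences (median -0.24), with none called and NOP16 (-0.88) and NOLC1 (-0.48) lower with the block. In the lists of NF-kB (median 0.02) and ERK feedback genes (median 0.06) none passed, and IER3, an immediate early gene in both, fell only with the block. IER3 read 12.63, 11.02 and 11.00 with sorafenib, against 13.46, 12.65 and 12.76 untreated, with no overlap. No gene passed among PI3K, AKT and FOXO genes (median -0.14) or among 9 BCL2 family genes (median 0.20). Of 10 death receptor genes (median 0.43) none passed, and FAS, the death receptor CD95, rose with the block (0.63). FAS was detected on 1 of 3 untreated arrays, so it lay near background there.

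The cytosolic ribosomal proteins (median 0.06) and the proteasome (median -0.11) had no call in either fit. Translation factors (median 0.03) and NRF2 targets (median -0.04) had none without the block, and with it EIF4G1, a scaffold of translation initiation, was lower (-0.77) and NFE2L1 higher (0.91). CSNK1G1, which encodes a casein kinase, had the second largest rise of all. CSNK1G1 read 9.47, 10.01 and 10.29 with sorafenib, against 7.82, 8.07 and 7.65 untreated (2.07 ± 0.271, adjusted p = 0.00647), but its second probe gave 0.65 (adjusted p = 0.366).

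Among the remaining leading rises were SH3RF2 (1.72), LOC374443 (1.61), the arylsulfatase gene ARSG (1.55), RIPOR2 (1.48), ADNP and C4orf33. LOC374443 was detected on 1 of 3 untreated arrays and ARSG on 2, so both lay near background there. ADNP and C4orf33 were detected on no untreated array and were at least 1.43-fold and 1.54-fold higher. ADNP was detected on the 3 sorafenib arrays and in no other group, so it met the detection filter only through the arrays where it was high. Its rise also depended on the probe. Under looser detection filters a brighter ADNP probe stood for the gene and gave -0.12. Among the remaining leading falls were the transporter gene SLCO4A1 (-1.41), the phosphodiesterase gene PDE1B (-1.39), HNRNPA1 (-1.37), which has many processed copies, ARLN (-1.21), ARSB (-1.08), another arylsulfatase gene, RASL11B (-1.07), NARF (-1.07), INTS2 and the actin-binding gene CTTN. CTTN read 7.65, 7.73 and 7.65 with sorafenib, against 8.73, 8.67 and 8.66 untreated. A second HNRNPA1 probe gave -0.85 (adjusted p = 0.167). PDE1B was detected on 1 of 3 sorafenib arrays. For INTS2, undetected on the sorafenib arrays, the fall was at least 1.26-fold. Of all 120 called genes 99 were detected on all 6 arrays, 10 on no untreated array and 2 on no sorafenib array. For 25 of them a further 29 probes were kept, and all 29 had the sign of the gene's representative probe, 6 past the threshold.

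Set against perifosine, sorafenib changed 83 genes (1.03%), 49 higher and 34 lower. The share higher was 0.606% and the share lower 0.42% of genes. This comparison uses the same sorafenib arrays as the first. The count was 31, 48 and 19 without sorafenib array A, B or C, 80, 19 and 23 without perifosine array A, B or C, and 368 with the replicate block. INSIG1 was -1.71 ± 0.214 (adjusted p = 0.00556) against perifosine and DHCR7 was -1.75 ± 0.189 (adjusted p = 0.00424), both with larger differences than against untreated cells. DHCR7 read 12.32, 12.48 and 12.68 on the perifosine arrays, above the untreated arrays. In all, 9 of 15 sterol synthesis genes were lower than with perifosine, where the list's median was -1.20, and perifosine itself had a median of 0.61 over the list against untreated cells. TRIB3 was 1.57 ± 0.276 (adjusted p = 0.0202) higher than with perifosine, CDC14B 1.88 ± 0.236 (adjusted p = 0.00556) and HK2 -1.19 ± 0.158 (adjusted p = 0.00667).

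The sorafenib effect could be read a second time on other arrays, as the combination minus perifosine alone, a comparison added after the data were seen. It shares no array with sorafenib against untreated, only the normalization and the estimate of spread. It called 193 genes (2.39%), 128 higher (1.58%) and 65 lower (0.803%), and 121 genes without combination array B, which had the lowest array weight (0.291). Of the 78 genes that rose with sorafenib alone 77 had a positive difference here and 51 passed, 51 of its 128 rises. Of the 42 that fell 41 had a negative difference and 20 passed, 20 of its 65 falls. The exceptions were ADNP (-0.07), detected on no combination or perifosine array, and INTS2 (0.11), detected on 1 combination array and on all 3 perifosine arrays. Over all genes the 2 differences had the same sign in 74.6%. The median over the 78 was 0.94 here, against 1.07 with sorafenib alone, and over the 42 it was -0.65, against -0.88.

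With perifosine present, TRIB3 was higher by 1.77 (adjusted p = 0.0111), CCPG1 by 1.68 (0.00608), ALOX5AP by 1.45 (0.0112) and CDC14B by 1.99 (0.00608). IL22 was lower by a difference of -1.56 (adjusted p = 0.0217), INSIG1 by -1.45 (0.00963), DHCR7 by -1.41 (0.0066) and HK2 by -0.77 (0.033). DDIT3 and PPP1R15A, which passed only with the block for sorafenib alone, passed here without it (1.41, adjusted p = 0.0321, and 1.36, adjusted p = 0.0129). ITGAL did not (1.21, adjusted p = 0.0528). Of the glycolysis genes 20 of 21 had negative differences (median -0.33) and 5 fell, and of the sterol synthesis genes 14 of 15 had negative differences (median -1.15) and 9 fell. Tested as an interaction, limma found 0 genes whose sorafenib effect differed with and without perifosine, with 163 of 8092 at an unadjusted p under 0.05. The SE of an interaction is larger than that of a single difference (0.224 against 0.158 for HK2). The 0 calls therefore do not show that the effects were equal.

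**Figure D5:**
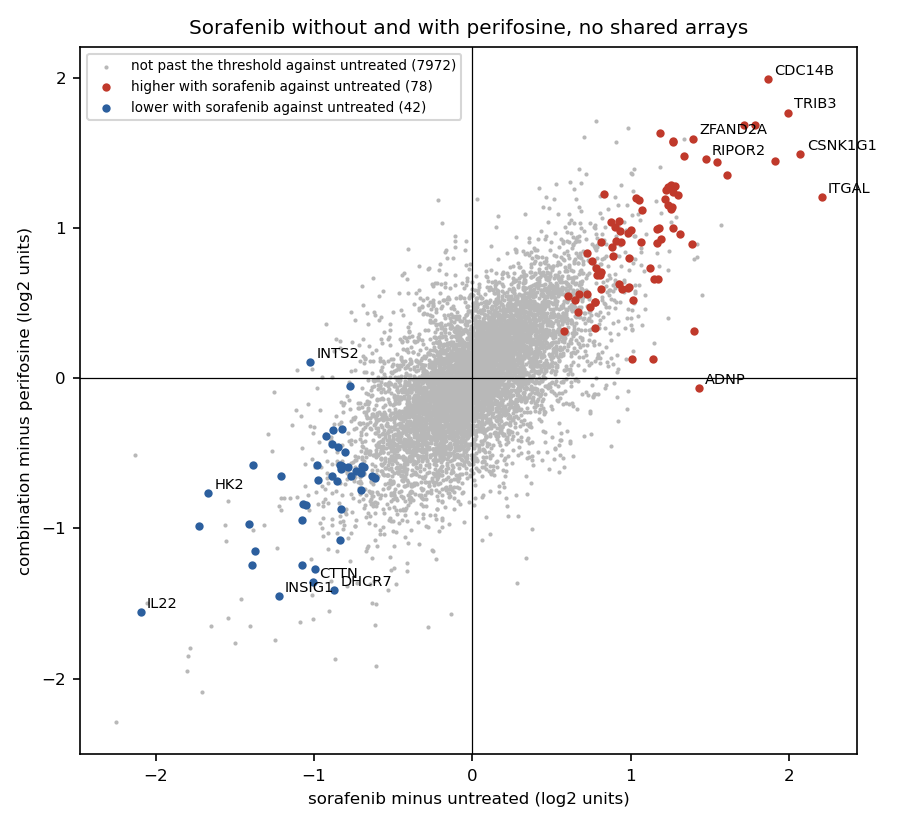
Combination minus perifosine (log2 units, vertical axis) against sorafenib minus untreated (horizontal axis) for 8092 genes; the axes share no arrays. Of the 120 genes past the threshold for sorafenib alone, 118 have the same sign on both axes.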

How the data were processed

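Total RNA of L-540 cells was amplified to biotinylated cRNA and measured on Illumina BeadChips, per the labels' protocols. The deposited table of unnormalized values holds, per the file headers, a mean bead intensity and a detection p-value for each probe and array. BeadStudio is named, per the submitters' processing notes, without a version. The lowest deposited intensity was 230.892, so the values were taken as not background-subtracted. The authors' second table holds normalized intensities with array medians of 492.259 to 492.91 and served as an alternative. Their normalization method was not given in the sources available.

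Intensities were corrected with normexp (offset 16), with the negative-control moments taken from detection p-values, and quantile normalized on the log2 scale with limma 3.58.1 in R 4.3.3. Of 48803 probes, 28098 carried 1 gene symbol in the platform annotation, 13 several and 20692 are unnamed here. Probes detected (p under 0.01) on 3 or more of the 12 arrays were kept (11904, of which 10117 had 1 gene), and the brightest probe stood for each of 8092 genes. All 12 arrays entered one limma model with a mean per group, and p-values were adjusted by Benjamini-Hochberg over all genes. The fit was tested on simulated data. The number of arrays, 3 a group, limits the precision. For a fold given as "at least", the mean of the brighter group was set against the dim group's mean, where each array entered at its own value or at its lowest detected signal, whichever was higher.

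Letters were taken from the titles. Residuals of sorafenib and untreated arrays of the same letter correlated (0.280 for A, 0.334 for B, 0.186 for C). The letters were therefore treated as pairs in the fit with a replicate block. Residuals of different letters had correlations from -0.280 to -0.00917. They are no separate evidence of pairing, because centring on each group's mean pushes them below 0 on average when same-letter values are positive.

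The members and the 45 gene lists (43 with measured members) were chosen with earlier results of these data known. Named were the 15 largest rises and 15 largest falls past the threshold without overlap. TRIB3, ATF4, DDIT3, DDIT4, ASNS, HK2, INSIG1, IL22, MYC and the list of target kinases and kinases below RAF were named in every case. Of each list the calls (up to 8) and the 3 largest differences could be named, with genes passing only under the block. Not all of the genes with the largest differences in a list are given in the text. Further genes were chosen after their values were seen. Promoters came from RefSeq (GRCh38.p14) and matched 99 of the 120 called genes by gene identifier. Alternatives changed the background correction, normalization, detection filter, probe summary, arrays in the fit, variance model and block.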

Additional observations from a re-analysis of the deposited data

Results flagged for a closer look

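Probes without a gene name entered no gene-level comparison. Of the 1785 kept, 13 had an adjusted p under 0.05 between sorafenib and untreated arrays, 5 higher and 8 lower, beside 120 of the 8092 genes. Their p-values were adjusted over all 11904 kept probes. The largest fall was that of ILMN_1906423, which read 7.97, 8.21 and 8.21 with sorafenib, against 9.90, 10.22 and 10.29 untreated (-2.01 ± 0.355, limma adjusted p = 0.0285). The largest rise was that of ILMN_1667232, which read 11.95, 11.51 and 11.98 with sorafenib, against 10.82, 10.09 and 10.14 untreated (1.46 ± 0.245, adjusted p = 0.0224).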

How the results depend on the processing

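The 120 calls of sorafenib against untreated became 404 with the replicate block, 385 with array weights, 292 without background correction and 292 in the authors' normalized table, 263 without combination array B, 227 with an intensity trend, 77 with detection on at least 1 array, 35 without a detection filter (27 higher and 8 lower), 13 on the 6 arrays alone and 8 with median scaling over all probes. Smaller shifts came with detection on at least 6 arrays (180), normexp offset 50 (155), the mean of a gene's probes (133) and median scaling over the kept probes (117). Leaving out 1 array gave 19 to 72 calls, 69% to 77.5% of them higher, against 65% in all. For sorafenib against perifosine the 83 calls became 368 with the replicate block, 10 with median scaling over all probes, and 19 to 80 with 1 array left out. For the combination against perifosine the 193 calls became 494 with the replicate block and 121 without combination array B. The 13 unnamed probes became 45 with the replicate block. The interaction kept 0 calls with the block (256 at an unadjusted p under 0.05). The block ended none of the 120 calls. Of 50 called genes named by the rule, 49 kept their sign under each of the 20 alternatives that gave a value (17 for H2AC8). Past the threshold in each of these stayed 7 (ALOX5AP, CCPG1, CDC14B, CSNK1G1, H2AC8, IL22 and ITGAL). H2AC8 met the detection filter only through arrays without sorafenib, where it was high. It was not tested with detection on at least 6 arrays or where a detected untreated array was left out. Settings that could have ended its call are therefore missing. ADNP reversed to -0.12 with detection on at least 1 array (adjusted p = 0.89) and without a filter (adjusted p = 0.959), where another, brighter probe stood for the gene. Low signal limits ITGAL, ADNP, C4orf33, CD160, LOC374443, ARSG, KIR3DL2, PDE1B, H2AC8, INTS2, FAS, CD274 and CIITA, which were near background in a group.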
